A study of Mus musculus with 2 samples.

Results

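Glutamate receptor genes of the AMPA and delta classes, with proteins that bind AMPA receptors, were followed in the RNA of mouse Purkinje cells, the output neurons of the cerebellar cortex. The group holds 9 genes out of 43346 Ensembl genes measured, chosen by symbol with earlier results of these data known. They are the AMPA subunits Gria1, Gria2, Gria3 and Gria4, the delta subunit Grid1, the auxiliary subunits Cacng2, Cacng7 and Cnih2, and the scaffold Grip1. The samples were 2 laser-captured pools of 30 cells each from adult male mice of strain B6CASTF1/J, a cross of C57BL/6 and castaneus mice, aged 14 months. The RNA was amplified as complementary DNA (SMARTer Ultra Low kit), with spike-in RNA as a standard, for sequencing on Illumina HiSeq instruments. By their labels the pools are biological replicates, numbered 1 and 2, that share a donor identifier, so a standard deviation (SD) between pools measures only the spread between these samples, which may be technical. There is no treated, mutant or control group, and the data describe levels, splice forms and agreement between the pools.

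Library depth was 31503819 expected counts for pool 1 and 28709397 for pool 2, and the 9 genes took 23572 and 24024 of them. All 7 Purkinje cell markers were detected, at a TPM of 1 or more, in both pools, with mean levels from 657 TPM for Gad1 to 25537 TPM for Pcp4. TPM, an abundance corrected for transcript length and scaled to a total of 1000000 per library, was used wherever genes are compared. Markers of Bergmann glia, the astrocytes that wrap Purkinje cells, were present as well, with 11 of 12 detected in both pools. Their mean levels ran from 0.485 TPM for Gfap to 1804 TPM for Slc1a3, and the upper value lies within the range of the Purkinje markers. Gja1, the next highest, had a mean of 622 TPM. Of the remaining marker lists, granule cells had 6 of 9 markers detected in both pools, interneurons 2 of 6, oligodendrocytes 3 of 6, oligodendrocyte precursors 1 of 4, microglia 1 of 6, endothelial and mural cells 3 of 6 and red blood cells 4 of 5. In such mixed pools, fewer cells of a type and less RNA per cell cannot be told apart.

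AMPA receptors are tetramers that carry most fast excitatory current in the brain, and Purkinje cells receive that current from parallel and climbing fibres. Receptors that contain an edited Gria2 product pass little calcium, and the removal of AMPA receptors from parallel fibre synapses underlies cerebellar long-term depression. Delta receptors are related in sequence but act as synaptic organisers that bind secreted cerebellins. Transmembrane regulatory proteins such as that of Cacng2 and cornichons such as that of Cnih2 join the AMPA receptor and alter its gating and transport.

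On mm10, Gria1 spans chr11:57011387-57330244, Gria3 chrX:41400854-41678601, Grid1 chr14:34820108-35583379, Grip1 chr10:119453830-120087261 and Cacng7 chr7:3332955-3368221, all on the plus strand. Gria2 spans chr3:80681450-80802835, Gria4 chr9:4417896-4796234, Cacng2 chr15:77991748-78120028 and Cnih2 chr19:5092868-5098521 on the minus strand. These spans are those of GENCODE M21.

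The alternative exons on which the splicing results rest are shown for Gria2, the most abundant subunit gene, and for Gria1, whose forms lay furthest apart between the pools. Both genes carry a pair of exons of 115 bases each, of which a mature receptor mRNA normally keeps a single one, the flip or the flop exon. In all 4 Gria genes the flop exon came first in the direction of transcription and the flip exon second. An exon was called flip where its reading frame held serine, and flop where it held asparagine, at the position known to set how the forms differ in desensitisation. On build mm10 the Gria2 exons lie on the minus strand of chromosome 3, flip at chr3:80690404-80690518 and flop at chr3:80691320-80691434. The Gria1 exons lie on the plus strand of chromosome 11, flip at chr11:57310608-57310722 and flop at chr11:57309769-57309883. Each line gives the coding strand, 5′ to 3′, read from GENCODE M21 transcripts, and capitals mark the bases at which the flip and flop exons of that gene differ.
Gria2 flip: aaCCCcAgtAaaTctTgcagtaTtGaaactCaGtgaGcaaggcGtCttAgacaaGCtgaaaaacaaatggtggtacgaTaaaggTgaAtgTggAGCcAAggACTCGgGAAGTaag
Gria2 flop: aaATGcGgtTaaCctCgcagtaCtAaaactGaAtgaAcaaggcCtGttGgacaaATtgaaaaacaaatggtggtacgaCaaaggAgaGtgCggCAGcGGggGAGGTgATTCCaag
Gria1 flip: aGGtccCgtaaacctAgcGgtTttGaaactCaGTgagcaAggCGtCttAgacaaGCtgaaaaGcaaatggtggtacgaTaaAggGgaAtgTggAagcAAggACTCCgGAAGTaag
Gria1 flop: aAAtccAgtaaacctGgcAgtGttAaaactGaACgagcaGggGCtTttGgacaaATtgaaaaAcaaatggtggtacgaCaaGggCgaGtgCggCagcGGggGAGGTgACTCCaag
Within each of these pairs 36 of 115 bases differed, which is 68.7% identity. The pairs of Gria3 and Gria4 differed at 32 and 31 bases. The same form was closer between genes than the forms were within a gene. The flop exons of Gria3 and Gria4 differed at 6 bases and the flip exons of Gria2 and Gria3 at 9.

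Gria2 was the most abundant AMPA subunit mRNA in both pools, at about the same level in each. It had 59.3 TPM in pool 1 and 57.4 in pool 2 (mean 58.4 ± 1.34 SD, n = 2), from 13126 and 10640 counts. Gria3, whose product pairs with that of Gria2 in Purkinje cell receptors, had 22.8 and 22.4 TPM (mean 22.6 ± 0.304, n = 2). Both genes thus differed little between pools on this scale. Gria4 had 13.96 TPM in pool 1 and 29.1 in pool 2 (mean 21.5 ± 10.7), and Gria1 had 10.9 and 19.4 TPM (mean 15.1 ± 6.01). Both of these were higher in pool 2, and Gria1 was the lowest of the 4 in each pool. The gap from Gria2 to Gria3 was larger than the SD of either gene. By the same measure Gria3 exceeded Gria1, but Gria4 was separated from neither, since its own SD was larger than the gaps. That measure takes no account of genes being read in the same pools. Within each pool Gria4 exceeded Gria1, while Gria4 lay below Gria3 in pool 1 and above it in pool 2. By mean TPM Gria2 ranked 839 among the 43346 genes, Gria3 1507, Gria4 1562 and Gria1 1922.

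The other members lay well below the AMPA subunits. Cnih2 averaged 1.95 ± 1.22 TPM, Cacng2 1.70 ± 0.375, Grid1 0.865 ± 0.460, Grip1 0.355 ± 0.148 and Cacng7 0.130 ± 0.156 (SD, n = 2). Detection in both pools held for 6 of the 9 genes, against 16.4% of all Ensembl genes. Grip1 and Cacng7 were below the limit in both, and Grid1 reached it in pool 2 alone. The median of the 9 mean levels was 1.95 TPM, against 0 TPM for all 43346 Ensembl genes. For the 8958 genes detected in at least 1 pool the median was higher, at 3.45 TPM.

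**Figure D1:**
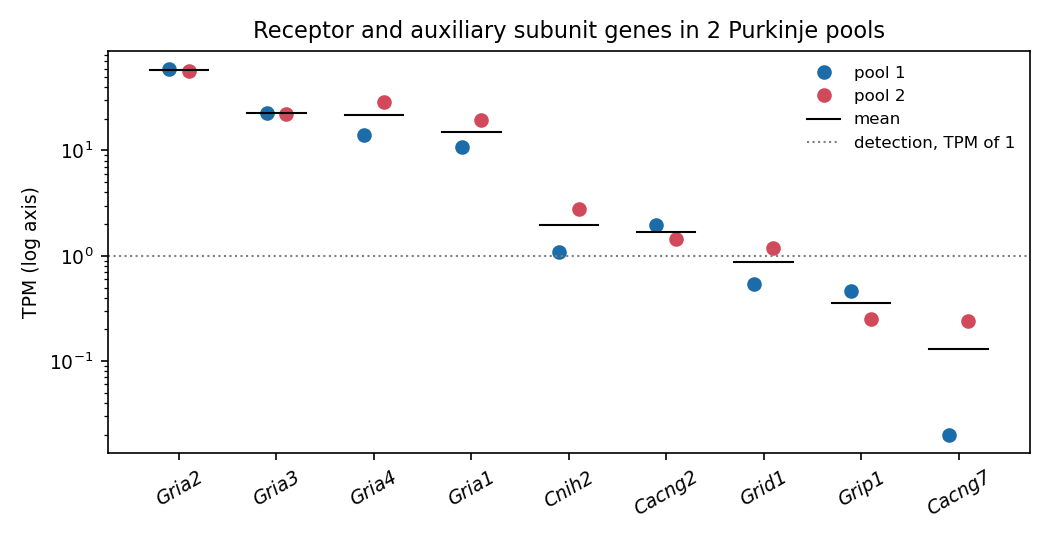
Level of each gene in TPM (log axis) in pool 1 (blue) and pool 2 (red), with the mean of both as a bar and the detection level of 1 TPM dotted. The AMPA subunit genes lie between 10.9 and 59.3 TPM, and all other members lie below 3 TPM.

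Within the summed TPM of the 4 AMPA subunit genes, Gria2 took the largest share in each pool. The sum was 106.9 TPM in pool 1 and 128.2 in pool 2. Gria2 held 55.5% in pool 1 and 44.8% in pool 2 (50.1% ± 7.56, SD, n = 2). Gria3 held 21.3% and 17.5% (19.4% ± 2.74), Gria4 13.1% and 22.7% (17.9% ± 6.81) and Gria1 10.2% and 15.1% (12.6% ± 3.49). The shares of Gria2 and Gria3 were lower in pool 2, and those of Gria4 and Gria1 higher. The ratio of Gria2 to Gria3 was nearly the same in the pools, at 2.60 and 2.57, while that of Gria2 to Gria4 was 4.25 and 1.97. Shares of counts, which are not corrected for length, gave 57.2% for Gria2 in pool 1 (exact 95% binomial interval 56.5 to 57.8) and 45.2% in pool 2 (44.6 to 45.9). These intervals cover counting error only.

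That order rested on transcripts not annotated as coding for a receptor. When only protein-coding transcripts were counted, a choice made after the values were seen, Gria2 had 18.0 TPM in pool 1 and 16.6 in pool 2, Gria3 16.3 and 20.8, Gria4 13.96 and 29.1, and Gria1 10.9 and 19.4. Gria2 was then highest in pool 1 and lowest in pool 2. Its mean share became 24.9% ± 7.88, beside 25.9% ± 2.34 for Gria3, 28.8% ± 7.27 for Gria4 and 20.5% ± 2.95 for Gria1 (SD, n = 2). No neighbours in this order differed beyond the spread between pools.

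**Figure D2:**
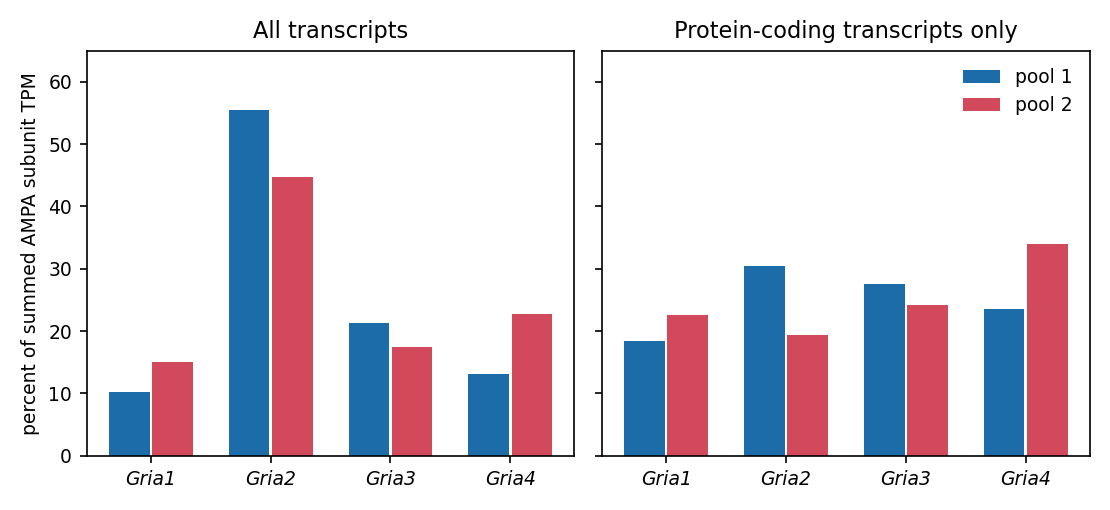
Percent of the summed TPM of Gria1 to Gria4 held by each gene in pool 1 (blue) and pool 2 (red), over all transcripts (left) and over protein-coding transcripts only (right). Gria2 holds 55.5% and 44.8% over all transcripts, and 30.5% and 19.3% over protein-coding ones.

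Gria2 was spread over transcripts of 3 annotated classes. Gria2-203, annotated as a target of nonsense-mediated decay, the pathway that removes mRNAs with early stop codons, had 20.3 TPM in pool 1 and 25.9 in pool 2, from 2950 and 3247 counts. It holds both the flop and the flip exon together with an extra exon of 41 bases. Every base of Gria2-203 is shared with another expressed transcript of the gene. Gria2-206, annotated as retaining an intron, had 20.4 and 14.8 TPM from 2786 and 1742 counts. Its last exon runs 764 bases into the intron upstream of the flop exon (chromosome 3, 80691521 to 80692284) and ends there, so it lacks the rest of the receptor. That stretch covers the 41-base exon of Gria2-203. The coding transcript Gria2-201, which carries the flop exon, had 17.1 and 15.1 TPM from 7126 and 5435 counts. It is 10371 bases long, with 6345 bases in its last exon that no other expressed Gria2 transcript has. By counts, protein-coding transcripts held 55.4% of Gria2 in pool 1 and 53.0% in pool 2. By TPM they held 30.4% and 28.9%. The 2 measures differ because TPM divides by length. Whether uneven coverage along these transcripts bears on the split was not tested.

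**Figure D3:**
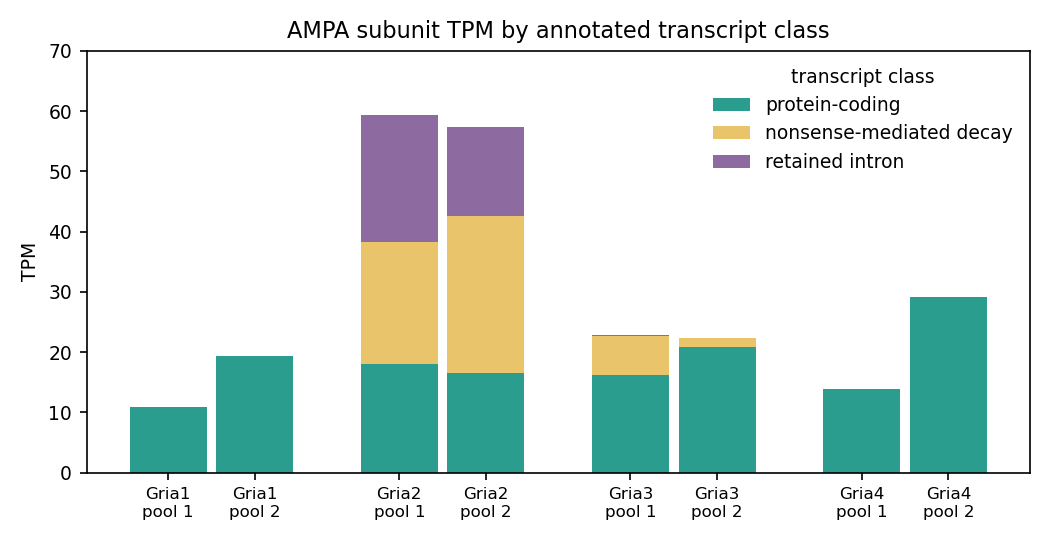
TPM of the AMPA subunit genes in each pool, stacked by annotated transcript class. Protein-coding transcripts make up 18.0 and 16.6 TPM of Gria2 in pools 1 and 2, and all of Gria1 and Gria4.

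As reads were assigned to annotated transcripts, Gria2 coding transcripts were mainly flop, while those of the other subunit genes were mainly flip. Among protein-coding Gria2 transcripts, flop made up 94.8% of TPM in pool 1 and 91.2% in pool 2 (92.99% ± 2.53, SD, n = 2). The flip transcript Gria2-202, named for its exon although 3 others were higher, had 0.940 and 1.46 TPM. Its counts were 151 with a posterior SD of 57.2 in pool 1, and 200.1 with a posterior SD of 55.8 in pool 2, where the posterior SD is the authors' measure of how uncertain the assignment of reads to that transcript was. Every base of Gria2-202 is shared with another expressed transcript of the gene. Over all Gria2 transcripts with either exon, the transcript with both held 53.0% in pool 1 and 60.97% in pool 2, flop 44.6% and 35.6%, and flip 2.45% and 3.43%. The flip and flop transcripts of Gria2 also differ in their 3′ ends, with last exons of 920 bases in Gria2-202 and 7265 in Gria2-201. Its shares therefore do not rest on the exon sequences alone.

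For Gria1 the flip share was 73.3% in pool 1 and 98.6% in pool 2 (mean 85.9% ± 17.8, n = 2). The flop transcript Gria1-202 had 2.90 TPM in pool 1 and 0.280 in pool 2, from 623 counts (posterior SD 126) and 51.7 counts (posterior SD 75.05). In pool 2 that estimate was smaller than its own posterior SD. The flip form was split between transcripts that differ at the 5′ end. Gria1-204 had 7.67 TPM in pool 1 and 16.4 in pool 2, and Gria1-201 had 0.300 and 2.69. The flop transcript Gria1-202 also differs from Gria1-204 at the 5′ end, by an exon of 160 bases that lies within an exon of Gria1-201. The flip and flop shares of Gria1 therefore do not rest on the exon pair alone.

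Gria3 was read as flip, with a part that held both exons. The flip transcript Gria3-201 had 16.3 and 20.8 TPM from 3368 and 3705 counts. Gria3-206, which holds both exons and is annotated as a nonsense-mediated decay target, had 6.38 TPM in pool 1 and 1.5 in pool 2. Its counts were 1315 (posterior SD 432) and 266 (posterior SD 227), and it has no base of its own. Flip thus made up 71.8% and 93.3% of transcripts with either exon, and the coding flop transcripts of Gria3 were listed at 0 counts in both pools. Those transcripts end in a last exon of 246 bases, against 2262 bases for Gria3-201, so this 0 does not rest on the exon sequence alone either.

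Gria4 was listed as flip alone among transcripts with either exon, at 12.2 TPM in pool 1 and 28.02 in pool 2 for Gria4-202. The flop transcript Gria4-201 was listed at 0 counts in both, yet its posterior mean was 459 counts in pool 1 (posterior SD 426) and 905 in pool 2 (posterior SD 557). By posterior mean TPM flop was 17.3% of Gria4 in each pool. A short coding form, Gria4-203, which ends upstream of the exon pair, had 1.72 and 1.08 TPM, with posterior SDs of 4.48 and 3.53 on 156 and 84.2 counts.

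**Figure D4:**
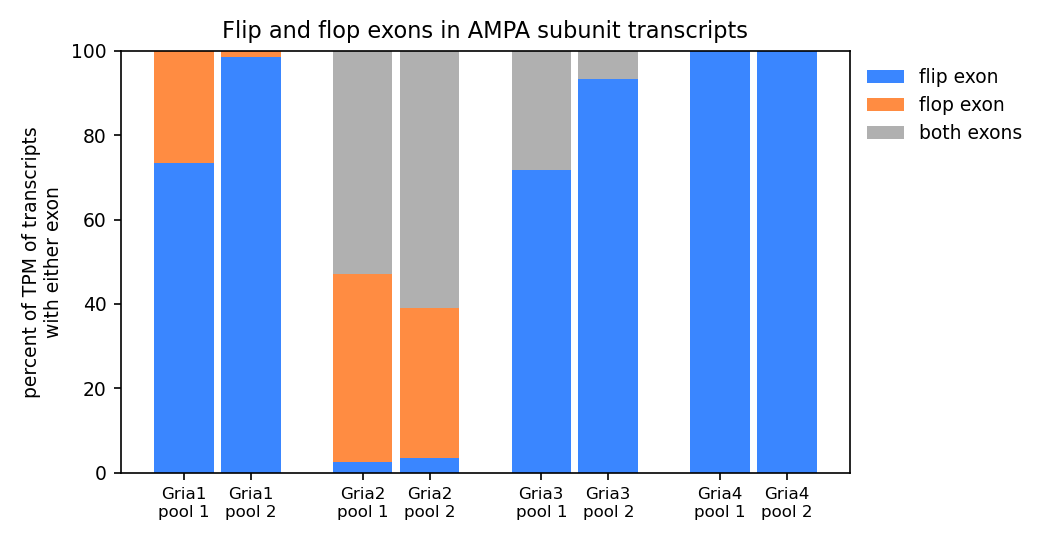
Percent of TPM in transcripts that hold the flip exon (blue), the flop exon (orange) or both (grey), over all transcripts with either exon, for each AMPA subunit gene and pool. Gria2 shows 2.45% and 3.43% flip, and Gria1 shows 73.3% and 98.6%.

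The delta subunit gene Grid1 had little signal, and most of its TPM came from a short RNA that codes for no receptor. Grid1 had 0.540 TPM in pool 1 and 1.19 in pool 2, from 46 and 68 counts. The coding transcript Grid1-201, of 6003 bases, had 0.140 and 0.210 TPM from 34.3 and 43.1 counts. Grid1-202, an RNA of 825 bases without an annotated reading frame, whose second exon lies within the last exon of the coding transcript, had 0.400 and 0.980 TPM from 11.7 and 24.9 counts. It held 73.4% and 82.4% of the gene's TPM (mean 77.9% ± 6.36, n = 2). By counts the coding transcript held the larger part, 74.6% in pool 1 and 63.4% in pool 2. Only 91 bases of Grid1-202 are in no other expressed transcript of the gene. Exons of Grid1 also share 91 bases on the same strand with Gm27617, which had 0 counts in both pools. Of the summed TPM of Grid1 and the 4 AMPA genes, Grid1 held 0.503% in pool 1 and 0.920% in pool 2, and by counts 0.1999% (exact 95% interval 0.146 to 0.267) and 0.288% (0.224 to 0.365). These shares cover the 5 named genes and not all AMPA and delta receptors. Cbln1, a secreted ligand of delta receptors made mainly by granule cells, had 3.04 and 1.94 TPM.

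Among auxiliary subunits, Cacng2, which encodes stargazin, the protein lost in the ataxic stargazer mouse, had 1.96 TPM in pool 1 and 1.43 in pool 2, from 430 and 270 counts. Gria2 had 30.3 times its TPM in pool 1 and 40.1 times in pool 2. Its exons share 323 bases with A730060N03Rik on the opposite strand, which had 29 and 30 counts. The labels do not say that reads were counted by strand, so reads in that stretch cannot be assigned. Cacng7, which encodes the related gamma-7 protein, had 2 and 18 counts, or 0.0200 and 0.240 TPM. Cnih2, a cornichon that slows the closing of AMPA receptors, had 1.08 and 2.81 TPM from 50 and 112 counts, and 14 of its exon bases lie within Yif1a on the opposite strand. Grip1, a scaffold with PDZ domains that binds the tails of the Gria2 and Gria3 products, had 0.460 and 0.250 TPM from 75 and 36 counts. Its transcripts Grip1-204 and Grip1-201 held 60.5% ± 0.255 and 30.8% ± 12 of its TPM, with 8 of the 36 counts of pool 2 on a transcript that retains an intron.

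The pools differed for most of these genes by more than the sampling of reads. In a two-sided exact binomial test of counts scaled by TMM, a method that assumes most genes do not differ, with Benjamini-Hochberg adjustment over 14495 genes, 8 of 9 members passed an adjusted p of 0.05, and so did 65.8% of all genes tested. The test compares these libraries and not conditions. Of the members, 4 were higher in pool 1 and 4 in pool 2, against 32.5% and 33.3% of all genes. The median log2 ratio of the members, pool 1 over pool 2, was -0.51, against 0.01 for all genes tested. That median is the value of Grid1, the member that did not pass, and it shows no shared shift of the members. The split of all calls moved with the scaling: the percent higher in pool 1 was 49.3% with TMM, 35.8% with total counts and 85.7% with spike-in totals.

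Higher in pool 1 were Gria2, with a log2 ratio of 0.36 (95% counting interval 0.33 to 0.40, exact binomial adjusted p = 3.19e-81), and Gria3, with 0.30 (0.24 to 0.36). Cacng2 with 0.73 (0.51 to 0.96) and Grip1 with 1.12 (0.53 to 1.73) lay in the same direction. Higher in pool 2 were Gria4, with a log2 ratio of -0.86 (interval -0.93 to -0.79, exact binomial adjusted p = 2.85e-149), and Gria1, with -0.56 (-0.64 to -0.49). Cnih2 with -1.10 (-1.62 to -0.61) and Cacng7 with -3.11 (-6.26 to -1.05) were also higher in pool 2, the last on very few reads. Grid1, at -0.51 (-1.08 to 0.06, exact binomial adjusted p = 0.106), did not pass. Spike-in totals, under which the median of all genes was 0.78, raised every ratio. Gria2 was then at 1.13, Gria3 at 1.07, Cacng2 at 1.5 and Grip1 at 1.89. Gria4 was at -0.09 and Cacng7 at -2.34, Cnih2 at -0.33 lost its call, and Gria1 at 0.21 and Grid1 at 0.27 turned round. On the TPM scale Gria2 and Gria3 differed by less, with log2 ratios of TPM + 1 of 0.05 and 0.03, against -0.24 for the median of all detected genes.

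The cell type markers differed between the pools as well. In TMM-scaled counts all 7 Purkinje markers were called higher in pool 1, with log2 count ratios from 0.15 to 0.54 and a median of 0.40. That range holds the values of Gria2 and Gria3, while Cacng2 at 0.73 and Grip1 at 1.12 lay above it. On the TPM scale, 5 of the 7 Purkinje markers were higher in pool 1 and 2, Pcp2 and Car8, in pool 2. Of 12 Bergmann glia and astrocyte markers, 10 were called higher in pool 2 and 1 in pool 1 by counts, and 11 were higher in pool 2 by TPM. The median log2 ratio of the 12 was -0.58, between the values of Gria1 and Gria4, and the range was -1.02 to 0.37. That range also holds the values of Gria2, Gria3 and Grid1, while Cnih2 at -1.10 and Cacng7 at -3.11 lay below it. The summed level of the 12 glial markers was 2552 TPM in pool 1 and 4524 TPM in pool 2. No marker on that list was at 0, the lowest being Gfap at 0.500 and 0.470 TPM. As background, Bergmann glia are known to make AMPA receptors from the Gria1 and Gria4 products. Globin and haem synthesis genes of red blood cells summed to 2453 TPM in pool 1 and 16.3 TPM in pool 2. The part of these cells in the levels of the members was not tested.

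**Figure D5:**
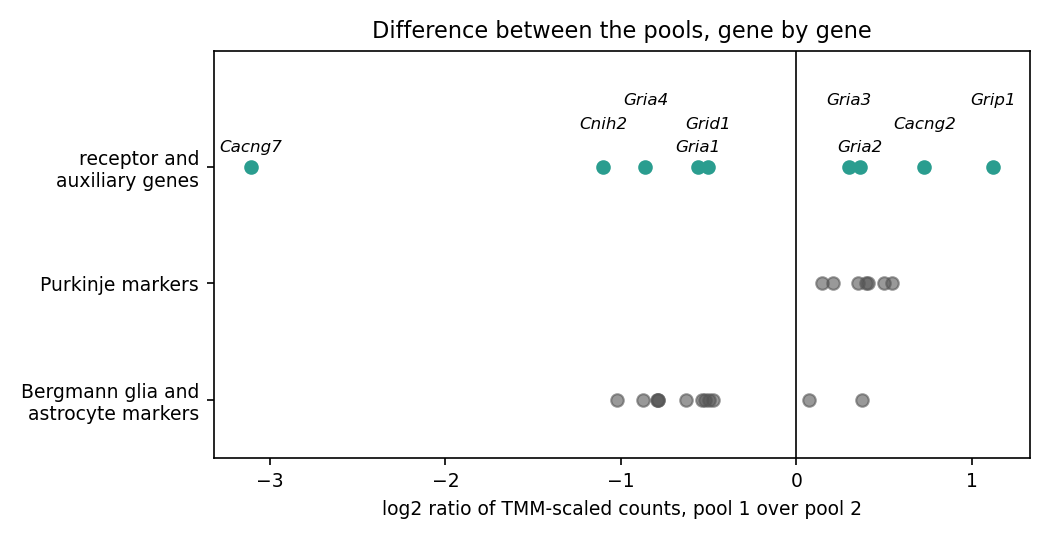
Log2 ratio of TMM-scaled counts, pool 1 over pool 2, for the 9 receptor and auxiliary genes (top) and for Purkinje and glial markers, with 1 point per gene. Gria2 at 0.36 and Gria3 at 0.30 lie to the right of 0 with the Purkinje markers, and Gria4 at -0.86 and Gria1 at -0.56 lie to the left with most glial markers. Cacng2 at 0.73 and Grip1 at 1.12 lie above the Purkinje markers, and Cnih2 at -1.10 and Cacng7 at -3.11 lie below the glial markers. Under spike-in totals Gria1 turned to 0.21.

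Several other AMPA receptor partners were far higher than Cacng2 or Cnih2. A list of 16 further auxiliary subunits, their relatives and secreted partners split evenly, with 8 detected in both pools and 8 in neither. The highest were Nptx1, a secreted pentraxin that clusters AMPA receptors (74.4 TPM in pool 1 and 70.6 in pool 2), and Syndig1, a membrane protein that binds them (58.1 and 70.7). Cnih1, listed as a relative of Cnih2, had 48.3 and 62.97 TPM, and whether its product joins AMPA receptors was not tested. The cornichon Cnih3 had 0 and 1 counts. Shisa6, which slows the desensitisation of AMPA receptors, had 30.6 and 42.3 TPM. Of the remaining proteins related to stargazin, Cacng4 averaged 0.590 TPM and Cacng3 0.220, while Cacng8 had 0 and 1 counts. Cacng5, with 2.85 and 6.71 TPM, and Shisa9, with 1.12 and 7.62 TPM, are named here after their values were seen. Both were called higher in pool 2, as were 8 of the 12 tested genes on that list with counts in both pools, and 2 were called higher in pool 1. Over all genes tested these calls were 33.3% and 32.5%. Gsg1l, with 0 counts in pool 1 and 25 in pool 2, was also called higher in pool 2.

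All 5 assembly factors of the endoplasmic reticulum had counts, and 4 were detected in both pools. Frrs1l, which builds the receptor before its auxiliary subunits join, had 42.7 TPM in pool 1 and 47.1 in pool 2, below Gria2 and above Gria3 in both pools. Sacm1l had 8.95 and 15.98 TPM, Porcn 4.58 and 12.9 and Abhd6, which binds newly made subunits, 5.45 and 6.57.

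Of 9 scaffold and trafficking genes, both pools showed 4 and neither pool showed 3. The highest by TPM were Nsf, an ATPase that binds the Gria2 product (22.01 and 32.2 TPM), and the scaffolds Dlg1 (12.4 and 24.1) and Dlg2 (6.90 and 6.37). Dlg3 came next (2.10 and 1.24). By counts, which are not corrected for length, Dlg1 had 332 in pool 1 and 433 in pool 2. That was fewer than the 704 and 639 of Dlg2. Pick1, which takes part in the removal of receptors with Gria2 from the synapse, had 0.680 and 0.580 TPM. Grip2, related to Grip1, had 0.300 and 0.230 TPM, and Dlg4, which encodes PSD-95, had 9 and 3 counts.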

How the data were processed

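RNA of 2 laser-captured pools was measured once each. The authors deposited a gene table and a transcript table per library. Build mm10 and GENCODE M4 are named in the readme text that came with the tables, while neither aligner nor quantifier is given in the sources used here. The deposited values, per the file headers, are expected counts (estimated reads), TPM, FPKM, and for each transcript its percent of the TPM of its gene. The posterior means and posterior SDs in the tables are also the authors'. FPKM and posterior means served as alternatives.

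Rows were matched by gene identifier without version to symbols, coordinates, transcript types and exons of GENCODE M21, a later release on the same build (42462 of 43346 identifiers matched). Of 46 member transcripts, 39 had the same length in M21. Of the counts, 0.000412% in pool 1 and 0.000194% in pool 2 lay on rows with numeric identifiers, which were left out with the 97 spike-in rows. Detection means a TPM of at least 1. Expected counts were rounded and genes with at least 10 counts in total were compared between libraries by a two-sided exact binomial test (scipy 1.17.1) given totals scaled by TMM (edgeR 4.0.16), adjusted by Benjamini-Hochberg and called at 0.05. The procedure was run on simulated counts that held read sampling only. They had no further spread between libraries, so that run does not bear on such spread. Size factors of DESeq2 1.42.0, total counts, spike-in totals, minimums of 1 and 50 counts and detection levels of 0.1 and 5 TPM were alternatives.

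The 9 members and the lists were chosen with earlier results of these data known. Genes that could be named from a list were its 4 highest and those under a TPM of 1 in both pools, of which a part is named, and for transcripts the 3 highest of a member. Of a list of delta receptor partners only Cbln1 is reported here.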

Additional observations from a re-analysis of the deposited data

How the results depend on the processing

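Levels of the 9 genes kept within 1 SD of the reported mean under posterior mean TPM and rescaled FPKM. A single pool lies within 1 SD of a mean of 2 by construction. Scaling without mitochondrial genes and spike-ins raised Gria2 to 64.1 TPM and Gria3 to 24.8 TPM, and left the other 7 within 1 SD. Counting protein-coding transcripts only gave mean levels of 17.3 TPM for Gria2, 18.5 for Gria3 and 0.175 for Grid1. It gave AMPA shares of 20.5% for Gria1, 24.9% for Gria2, 25.9% for Gria3 and 28.8% for Gria4, and a Grid1 share of 0.240%, which shares of expected counts put at 0.244%. The flip share of Gria2, 2.94% over both pools, was 1.86% by expected counts and 7.01% over protein-coding transcripts. That of Gria3 was 100% over protein-coding transcripts, by construction since its coding flop transcripts had 0 counts, and that of Gria4 was 82.7% by posterior mean TPM. The count of genes that differ between the libraries ran from 7745 to 11002 against 9536, and each setting kept it within 1.5 times. Under spike-in totals the log2 ratio turned to 0.21 for Gria1 and 0.27 for Grid1, and that of Cnih2 was -0.33, no longer past the threshold, while under total counts Grid1 passed it at -0.70. A scaling moves the ratios of all genes by the same amount, so relative to the median of all genes Gria1 stayed at -0.57. At a TPM of at least 5, 5 genes on the list of further auxiliary subunits, relatives and secreted partners were detected. So were 1 editing enzyme and 1 kainate or NMDA subunit. At 0.1, 8 scaffold genes and 8 kainate or NMDA subunits were detected. No paired analysis was possible because the pools form a single group. With 1 library on each side, no library could be left out of the test between them. The lowest members rest on 2 to 112 counts, which limits their ratios.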

Other observations

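Other ionotropic glutamate receptor genes were lower than the AMPA subunits. Of 12 kainate and NMDA receptor subunits, both pools showed 4 above the detection limit and neither showed the other 8. The highest were Grin1, the obligatory NMDA receptor subunit, with 7.47 TPM in pool 1 and 5.77 in pool 2, the kainate subunit Grik1 with 3.67 and 3.36, Grin2b with 1.52 and 2.70 and Grik2 with 1.16 and 1.25. All 12 together had 14.9 and 14.4 TPM, against 106.9 and 128.2 TPM for the 4 AMPA subunit genes. Grin2a had 8 and 0 counts and Grin3b had none in either pool.

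The family that includes the enzymes editing adenosine in RNA was followed through 3 genes. Adarb1, whose product edits the Gria2 pore site, had 5.72 TPM in pool 1 and 5.44 in pool 2. Adar had 1.62 and 1.65 TPM. Adarb2 had 0.260 and 0.160 TPM. Editing of the Gria2 reads themselves was not analysed here.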
